A study of Mus musculus with 12 samples.

Results

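The genes described here are 10 enzymes and regulators of de novo lipogenesis, the making of fatty acids from carbon that was not fat: Acly, Acss2, Acaca, Fasn, Elovl6, Scd1, Scd2, Srebf1, Mlxipl and Thrsp. They were taken by symbol from the 52550 gene IDs of the count table, each matched a single Ensembl ID, and the rule used no measured value. Their transcripts were counted by sequencing of polyadenylated RNA in 12 mouse libraries, 3 in each of 4 groups: white adipose tissue (WAT, inguinal) and brown adipose tissue (BAT) of control and of AKO animals. Controls were Mcu fl/fl, so they carried the floxed Mcu alleles too, and AKO animals were Mcu fl/fl with Mcu, the pore of the mitochondrial calcium uniporter, deleted in adipose tissue. According to the series' design text, both genotypes were fed a high-fat diet. The promoter behind the recombinase, the floxed exon and the animals' strain, age and sex are details that the sources used here do not give.

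In this pathway, citrate that leaves the mitochondrion is split by ATP citrate lyase (Acly), and acetate is activated by acetyl-CoA synthetase (Acss2), so that both supply acetyl-CoA in the cytosol. Acetyl-CoA carboxylase (Acaca) turns it into malonyl-CoA, fatty acid synthase (Fasn) builds palmitate, Elovl6 lengthens it, and the stearoyl-CoA desaturases Scd1 and Scd2 add a double bond. SREBP-1 (Srebf1) and ChREBP (Mlxipl) are the transcription factors best known for driving these genes in response to insulin and to glucose, and Thrsp (Spot 14) is a small protein known as a marker and promoter of lipogenesis. Brown fat of mice is known for high lipogenic gene expression alongside its burning of fat.

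Libraries held 15692588 to 18967159 counts. Mcu measured 18.3 to 19.2 CPM (counts scaled to library size) in the WAT controls against 10.1 to 12.6 in WAT AKO, and 23.6 to 29 against 8.13 to 14.3 in BAT, so the groups separated as labelled in both tissues. The 8 markers of brown adipocytes took 0.599% to 0.74% of counts in BAT libraries and 0.00345% to 0.00825% in WAT libraries, and the 8 general adipocyte markers were detected in each group. Skeletal muscle markers were highest in WAT AKO 2 (2.48% of counts), BAT AKO 2 (1.84%) and WAT control 1 (1.41%), followed by WAT control 2 (0.357%) and BAT control 1 (0.199%), and took at most 0.0613% in each of the other libraries. In bulk tissue, fewer adipocytes and less of a transcript per adipocyte cannot be told apart.

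In mm10, 4 of the genes lie on chromosome 11: Fasn (120805846 to 120824547, minus strand), Acaca (84129672 to 84401651, plus strand), Acly (100476353 to 100528000, minus strand) and Srebf1 (60199089 to 60222581, minus strand). Scd1 (44394455 to 44407879, minus strand) and Scd2 (44293674 to 44306864, plus strand) are neighbours on chromosome 19. Elovl6 lies on chromosome 3 (129532355 to 129638495, plus strand), Mlxipl on chromosome 5 (135089890 to 135138382, plus strand), Acss2 on chromosome 2 (155517948 to 155585724, plus strand) and Thrsp on chromosome 7 (97412938 to 97417730, minus strand). Counts are per whole gene over its exons, so the products of alternative starts of Srebf1 and Mlxipl cannot be told apart. Acaca shares 29.2% of its 50-base exon windows with the processed pseudogene Gm5182, so its level is uncertain by an amount not known here. Scd1 and Scd2 share under 3% with each other (2.97% and 2.66%). Scd1 counts far exceed those of Scd2, however (520625 against 1586 in BAT control 1), so misassigned Scd1 reads could weigh on Scd2. How reads matching several genes were assigned is not given.

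RefSeq promoter sequences of the same build (GRCm38.p6) were found for 8 of the 10 genes. Windows of up to 250 bases before each start were searched on both strands for an E-box (CACGTG), a sterol regulatory element (TCACNCCAC), a CCAAT box (CCAAT), a GC box (GGGCGG) and the carbohydrate response element ChoRE, which is a pair of E-box-like runs and can overlap an E-box. Fasn, Acly and both starts of Mlxipl are printed because these genes differ several-fold between the depots and because the Mlxipl windows hold the E-box and the sterol element. Capitals mark the matches, written 5′ to 3′ on the strand of the gene.
Fasn chr11:120824548-120824797 (minus strand): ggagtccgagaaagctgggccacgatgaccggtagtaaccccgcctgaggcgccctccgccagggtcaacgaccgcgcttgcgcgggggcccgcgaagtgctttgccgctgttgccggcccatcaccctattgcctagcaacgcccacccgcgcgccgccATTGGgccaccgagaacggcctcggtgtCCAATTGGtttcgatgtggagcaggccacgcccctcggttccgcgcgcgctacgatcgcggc
Acly chr11:100528001-100528250 (minus strand): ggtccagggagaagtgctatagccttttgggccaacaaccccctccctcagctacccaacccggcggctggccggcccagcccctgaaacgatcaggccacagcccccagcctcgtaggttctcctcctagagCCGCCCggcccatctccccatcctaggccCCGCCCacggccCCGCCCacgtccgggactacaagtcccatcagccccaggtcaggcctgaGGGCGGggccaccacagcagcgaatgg
Mlxipl first start chr5:135089640-135089889 (plus strand): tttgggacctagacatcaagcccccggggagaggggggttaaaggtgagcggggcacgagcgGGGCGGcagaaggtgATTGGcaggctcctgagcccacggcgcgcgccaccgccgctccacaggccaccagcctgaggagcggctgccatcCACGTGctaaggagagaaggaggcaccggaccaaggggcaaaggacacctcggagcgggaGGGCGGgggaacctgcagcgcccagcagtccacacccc
Mlxipl second start chr5:135106641-135106890 (plus strand): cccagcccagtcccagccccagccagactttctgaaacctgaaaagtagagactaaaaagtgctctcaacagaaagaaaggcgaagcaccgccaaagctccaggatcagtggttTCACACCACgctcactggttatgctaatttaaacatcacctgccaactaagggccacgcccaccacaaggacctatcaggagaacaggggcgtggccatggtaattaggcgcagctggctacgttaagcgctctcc
The Fasn window holds 3 CCAAT boxes, of which the last pair overlap, and the Acly window holds 4 GC boxes. The first Mlxipl window holds the E-box, a CCAAT box and a pair of GC boxes, and the second holds the sterol element. Among 32817 RefSeq promoter windows, 6.02% held the E-box, 1.05% the sterol element, 33.8% a CCAAT box, 32.7% a GC box and 0.0975% the ChoRE, which matched none of the windows of these genes. A match is a run of letters and says nothing of binding in these samples.

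Per base of transcript, Scd1 stood far above the other genes in both depots. In the authors' length-scaled values (FPKM), which allow genes to be compared, the mean of the WAT controls was 6566 for Scd1 and 340 for Fasn, followed by Scd2 (162), Thrsp (110), Acly (57.4) and Srebf1 (57.1), whose libraries overlap from one to the next. Acss2 (20.1), Mlxipl (15.4) and Acaca (13.6) came next, again with overlap between neighbours, and Elovl6 was lowest at 2.96. In BAT controls the order changed below the top: Scd1 (6766), Fasn (1374), Thrsp (513) and Acly (218) each stood clear of the next, Mlxipl (84) and Acaca (78.7) overlapped, as did Srebf1 (43.3) and Elovl6 (39.2), and Scd2 (21.5) and Acss2 (21.1) were at the bottom. Scd1 alone took 2.24% to 4.18% of all counts in WAT libraries, where it ranked first in each, and 2.77% to 4.09% in BAT libraries. The other 9 genes together took 0.424% to 0.684% of counts in WAT and 1.08% to 2.68% in BAT.

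**Figure D1:**
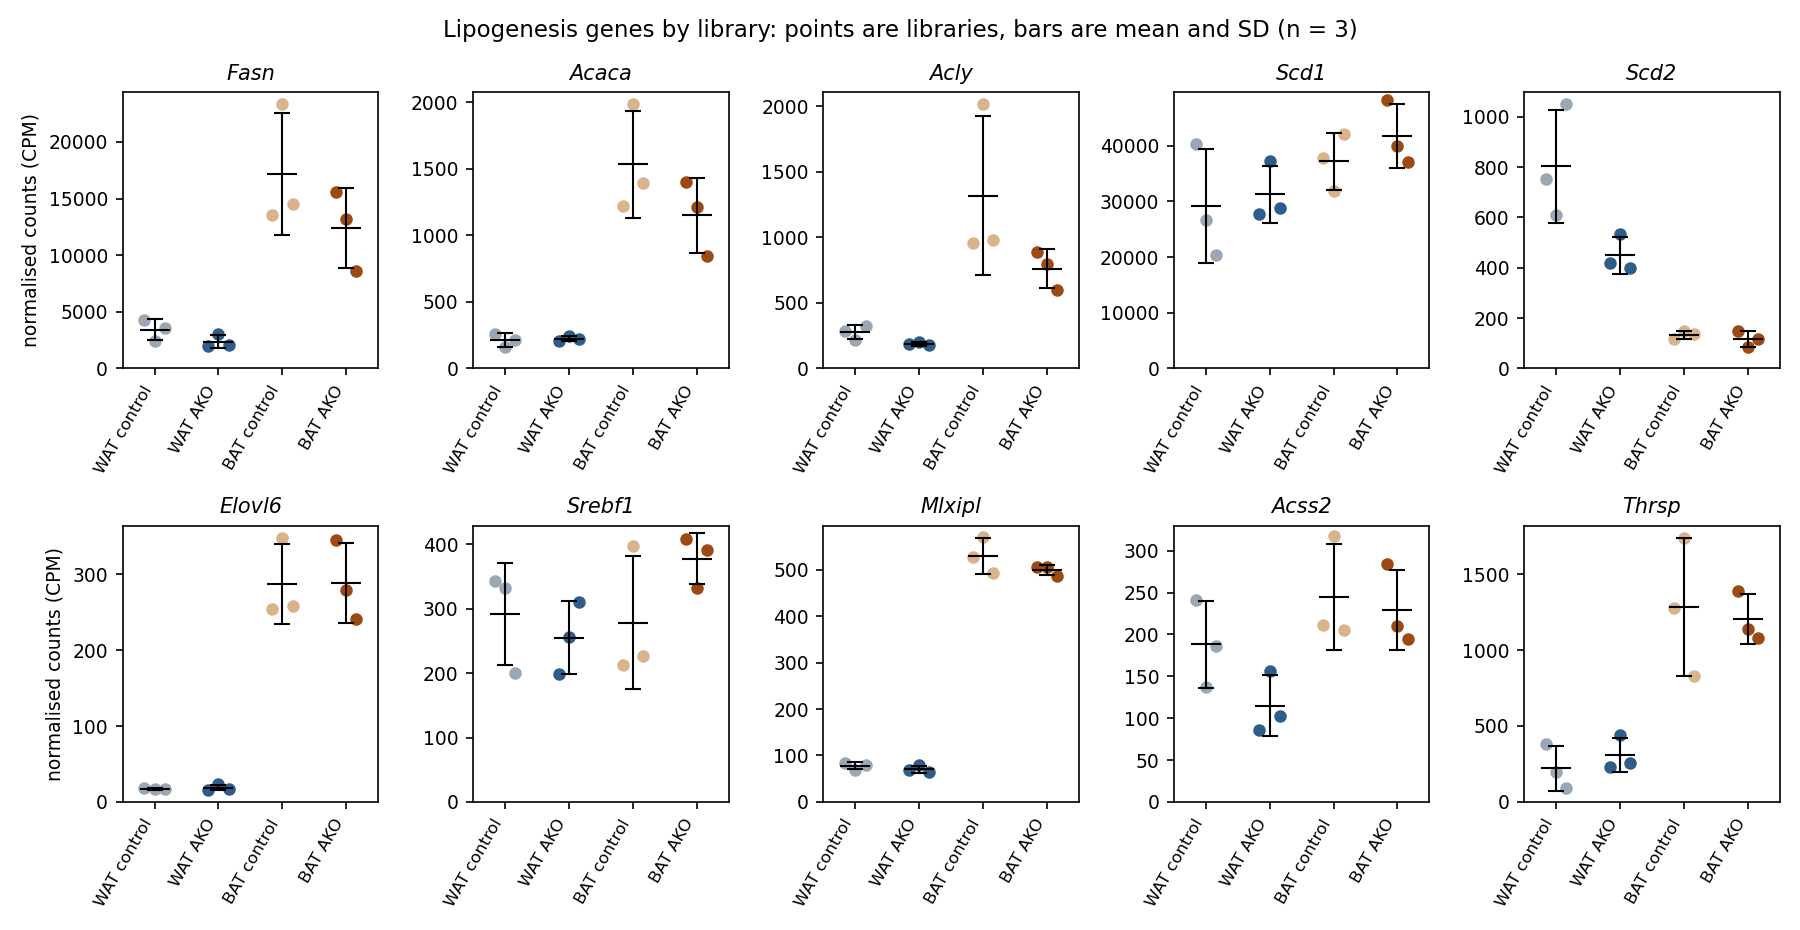
Level of each of the 10 genes in the 12 libraries, in TMM-normalised CPM on linear axes, by depot and genotype. Each point is a library, and bars show the mean and SD of each group. Fasn, Acaca, Acly, Elovl6, Mlxipl and Thrsp sit higher in all BAT than in all WAT libraries, Scd2 sits lower, and Scd1, Srebf1 and Acss2 overlap between the depots.

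The depots of the control animals were compared first, to describe where the pathway is expressed before asking what the deletion of Mcu does to it. Of the 10 genes, 6 were higher in BAT and 1, Scd2, was lower. These counts come from edgeR's quasi-likelihood test with a Benjamini-Hochberg adjusted p under 0.05 over all genes, by which 50.1% of genes tested differed between the depots, 24.4% higher and 25.7% lower in BAT. In the same 7 genes, and in 61.5% of all genes, the 3 BAT controls did not overlap the 3 WAT controls. Of all genes, 28.8% were separated higher and 32.7% lower in BAT. The median log2 difference of the 10 genes was 2.32, against -0.04 over all genes. Replicate numbers were taken to pair the depots, as described with the processing. The main test used no block, and a fit with the number as a block called the same count of 6 higher and 1 lower.

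Among the enzymes that make acetyl-CoA, Acly measured 286, 218 and 327 CPM in WAT controls 1 to 3 and 953, 2016 and 980 CPM in BAT controls 1 to 3. Every BAT control lay above every WAT control, and BAT control 2 stood well above the other BAT controls. The log2 difference was 2.28 ± 0.329 (SE; edgeR adjusted p = 0.00155). Acss2, the enzyme for acetate, measured 241, 137 and 186 CPM in WAT against 211, 318 and 205 CPM in BAT controls. Its groups overlapped, and the log2 difference of 0.41 (95% interval -0.18 to 1.00) did not pass the test (edgeR adjusted p = 0.206).

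At the committed step, Acaca measured 262, 162 and 215 CPM in WAT controls and 1218, 1985 and 1393 CPM in BAT controls. The difference was 2.88 ± 0.254 on the log2 scale (edgeR adjusted p = 0.000205). Fasn measured 4255, 2422 and 3576 CPM in WAT and 13578, 23329 and 14554 CPM in BAT controls, which is 2.36 ± 0.295 higher (edgeR adjusted p = 0.000862). In both genes the depots did not overlap, and in both BAT control 2 was the highest library.

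Elovl6, which lengthens palmitate to stearate, had the largest difference of the 10 genes. It measured 18.3, 17.1 and 16.5 CPM in WAT controls and 255, 348 and 259 CPM in BAT controls, a 17-fold difference (log2 4.08 ± 0.159, edgeR adjusted p = 3.05e-05). The spread within each group was small beside it.

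The desaturases, which are close relatives, went separate ways between the depots. Scd1 measured 40329, 26733 and 20334 CPM in WAT and 37749, 31837 and 42059 CPM in BAT controls, and the groups overlapped (log2 difference 0.39, 95% interval -0.26 to 1.04, edgeR adjusted p = 0.275). Scd2 measured 751, 610 and 1050 CPM in WAT and 115, 148 and 138 CPM in BAT controls. It was the only one of the 10 called lower in BAT (log2 difference -2.56 ± 0.223, edgeR adjusted p = 0.000197). As a share of the summed FPKM of Scd1 and Scd2, Scd2 made up 1.21% to 4.38% in WAT libraries and 0.193% to 0.41% in BAT libraries. Markers of progenitors and fibroblasts took 0.492% to 0.899% of counts in WAT controls and 0.0756% to 0.104% in BAT libraries, and their part in the Scd2 difference was not tested.

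The regulators also split. Mlxipl (ChREBP) measured 84.7, 69.2 and 79.6 CPM in WAT and 528, 570 and 492 CPM in BAT controls, with a narrow spread in both and a log2 difference of 2.80 ± 0.128 (edgeR adjusted p = 4.14e-05). Srebf1 measured 343, 333 and 201 CPM in WAT and 212, 397 and 227 CPM in BAT controls, and neither depot was higher beyond the spread (log2 difference -0.04, 95% interval -0.76 to 0.67). Thrsp measured 382, 199 and 88.7 CPM in WAT and 1279, 1737 and 827 CPM in BAT controls (log2 difference 2.55 ± 0.544, edgeR adjusted p = 0.00787). The WAT controls of Thrsp were the most scattered values of any group and gene here, with a coefficient of variation of 66.3%, yet all 3 lay below the lowest BAT control.

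**Figure D2:**
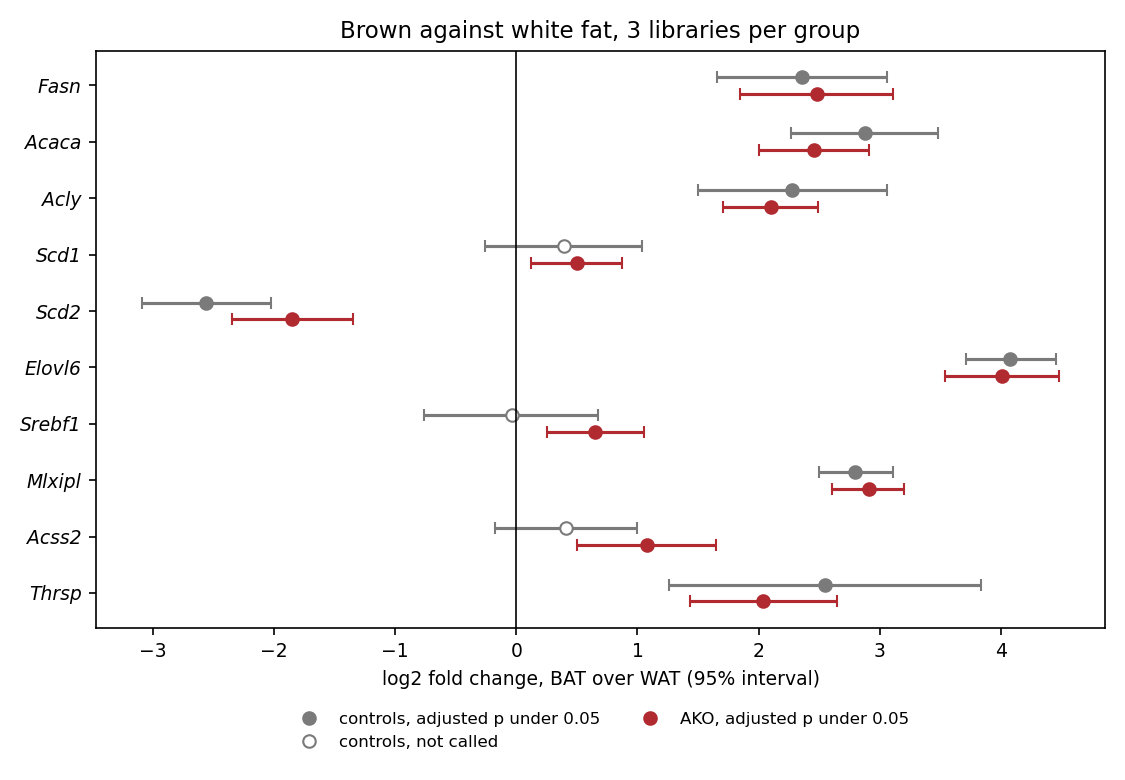
Log2 difference between BAT and WAT for each gene, in controls and in AKO animals, with 95% intervals from the edgeR fits. Elovl6 lies near 4 in both genotypes, Scd2 is the only gene below 0 in both, and the intervals of Scd1, Srebf1 and Acss2 include 0 in controls.

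Leaving out a library changed the count of called genes in controls only when WAT control 1 was left out, and then Scd1 was called higher as well (log2 difference 0.72, edgeR adjusted p = 0.0386). In AKO libraries, which are separate from the controls, the 7 genes were called in the same directions. Of the 10 genes 9 were higher and 1 lower in BAT, where 59.3% of all genes were called, 28.8% higher and 30.5% lower. Without overlap there were 8 higher and 1 lower, against 67.3% of all genes without overlap in either direction, 29.3% higher and 38% lower. Elovl6 differed by 4.01, Mlxipl by 2.91, Fasn by 2.48, Acaca by 2.46, Thrsp by 2.04 and Scd2 by -1.85 on the log2 scale, and Acly was 4.29-fold higher. Acss2, at 85.8, 156 and 103 CPM in WAT AKO and 284, 210 and 194 CPM in BAT AKO, was separated there and passed (1.08, edgeR adjusted p = 0.00684). Srebf1 (198, 256 and 311 against 409, 333 and 391 CPM) passed too (0.65, edgeR adjusted p = 0.0125), but not with all 12 libraries in 1 edgeR fit (adjusted p = 0.0824). Scd1 was called in AKO animals with the smallest difference, 0.50 ± 0.161 (edgeR adjusted p = 0.0301). Its libraries overlapped, and it was not called with the replicate number as a block (adjusted p = 0.135) or when WAT AKO 1, WAT AKO 3, BAT AKO 1 or BAT AKO 2 was left out (0.0556 to 0.117). On the scale of log2 FPKM, where the median of all genes shifts from -0.02 to between -0.31 and -0.58, Scd1 turned to -0.07, and Srebf1 (0.09) and Acss2 (0.50) were not called by limma. Whether the depot difference of a gene itself changed with genotype is the same test as that of the difference of the AKO effects, which called none of the 10.

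The other genes of the pathway were taken from 4 lists, whose shares of called genes were near or below the 50.1% of all genes (24.4% higher, 25.7% lower) and are given as counts only. Among 8 genes that export citrate and supply NADPH, 3 were higher and 1 lower in BAT controls: the pentose phosphate enzymes Tkt (310 against 3148 CPM, log2 3.37) and Taldo1 (1.28), Mdh1 (0.79), and malic enzyme Me1, which was lower (-0.70). Among 14 tested relatives and downstream enzymes, 3 were higher (Acacb, Acss1 and Elovl3) and 3 lower (Elovl1, Fads1 and Hacd2). Acacb, the mitochondrial-membrane carboxylase whose malonyl-CoA restrains fat oxidation, measured 190 against 1976 CPM (3.41), and Acss1, the mitochondrial acetyl-CoA synthetase, 16.6 against 233 CPM (3.85). Acss3, another relative of Acss2, measured 35 against 20.7 CPM (-0.72), did not pass edgeR (adjusted p = 0.0716) and was called lower by DESeq2. Fads1, Hacd2 and Acss3 are named here after their values were seen. Of 10 genes that control SREBP processing and activity 3 were higher, among them Scap (0.46), which carries SREBP to the Golgi, and 1, Insig2, which retains that complex, was lower (-0.74).

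The second question was whether deletion of Mcu altered the pathway. In WAT, none of the 10 genes passed edgeR's test, and only 0.0189% of all genes did. Mcu, the deleted gene, did not pass it either (log2 change -0.75, edgeR adjusted p = 0.0799). At an unadjusted p under 0.05 there were 3 of the 10, Acly, Scd2 and Acss2, all lower in AKO, beside 3597 of all 15915 genes tested. DESeq2 called Acly and Scd2 lower, where it called 979 of all 15915 genes lower, and limma voom called none of the 10. The log2 changes were positive for 4 genes and negative for 6, with a median of -0.17 against 0.00 over all genes. Markers of other cells differed between the WAT groups without overlap. B lymphocyte markers took 0.0602% to 0.157% of counts in AKO against 0.000364% to 0.0483% in controls, T and NK lymphocyte markers 0.023% to 0.0442% against 0.00096% to 0.0226%, and macrophage markers 0.117% to 0.146% against 0.148% to 0.19%. The highest lymphocyte share among the controls was that of WAT control 2, and the part of these cells in the values of the 10 genes was not tested.

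Acly measured 286, 218 and 327 CPM in WAT controls and 183, 203 and 176 CPM in WAT AKO, with all AKO libraries below all controls. Its log2 change was -0.56 ± 0.174 (edgeR adjusted p = 0.148; DESeq2 adjusted p = 0.0334). Scd2 measured 751, 610 and 1050 CPM in controls and 417, 533 and 397 CPM in AKO. It too was separated, with a log2 change of -0.84 ± 0.242 (edgeR adjusted p = 0.134; DESeq2 adjusted p = 0.0104). Such separation towards lower values occurred in these 2 of 10 genes and in 15.6% of all genes. Progenitor and fibroblast markers took 0.492% to 0.899% of counts in WAT controls and 0.366% to 0.436% in WAT AKO, and their part in the Scd2 values was not tested.

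Acss2 measured 241, 137 and 186 CPM in WAT controls and 85.8, 156 and 103 CPM in AKO, with 1 AKO library inside the control range (log2 change -0.71 ± 0.288, edgeR adjusted p = 0.214). Fasn measured 4255, 2422 and 3576 CPM in controls and 1965, 3026 and 2066 CPM in AKO, with overlap (-0.54, 95% interval -1.22 to 0.14). The control library with the lowest Acly, Scd2, Acss2 and Fasn was WAT control 2. Without it, edgeR called Acly (-0.73, adjusted p = 0.0357) and Scd2 (-1.03, adjusted p = 0.0448), while 1649 genes in all were then called.

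The other genes gave small values in WAT, none past the test. Acaca (204, 242 and 220 CPM in AKO) had a log2 difference of 0.06, Elovl6 (16.3, 23 and 17.4 CPM) one of 0.13, Mlxipl (68.5, 78.6 and 64.4 CPM) one of -0.14 and Srebf1 (198, 256 and 311 CPM) one of -0.20. The intervals differ in width: that of Mlxipl ran from -0.44 to 0.16, while that of Scd1 (27735, 37192 and 28826 CPM) ran from -0.67 to 0.87 and that of Thrsp (232, 438 and 257 CPM) from -0.78 to 1.73. WAT control 1 and WAT AKO 2, which hold most muscle transcripts in WAT, also had the highest mean level of the 10 genes within their groups (z-scores of 1.13 and 0.55). In BAT it was otherwise: BAT control 1 was the lowest control (-0.32), and BAT AKO 2 (-0.29) lay below BAT AKO 1 (0.53). Without the muscle-rich libraries none of the 10 was called in either tissue. EdgeR then called 0 of all 16108 genes tested in WAT and 2 of 14358 in BAT, so this check says little about the 10.

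**Figure D3:**
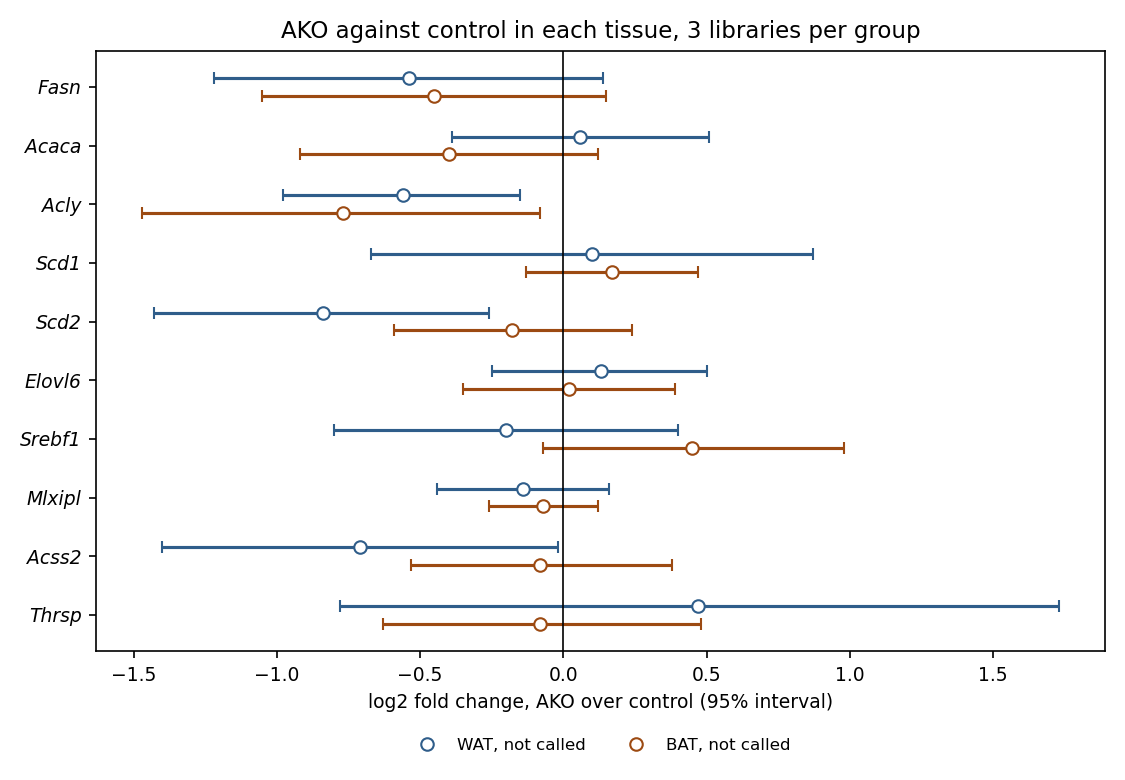
Log2 change in AKO against control for each gene in WAT and in BAT, with 95% intervals from edgeR. Acly lies below 0 in both tissues, at -0.56 and -0.77, and no gene passed the adjusted threshold in either.

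In BAT none of the 10 genes passed edgeR's test either, beside 0.0771% of all genes (0.0491% higher, 0.028% lower). Mcu again did not pass it (log2 change -1.27, edgeR adjusted p = 0.202). DESeq2 and limma voom called none of the 10. Among them 1 gene, Acly, had an unadjusted p under 0.05, as had 1942 of all 14265 genes tested. Acly measured 953, 2016 and 980 CPM in controls and 887, 797 and 596 CPM in AKO. All AKO libraries lay below all controls, the closest pair being 887 and 953 (log2 change -0.77 ± 0.295, edgeR adjusted p = 0.342). It was the only one of the 10 that was separated towards lower values in BAT, where 10.3% of all genes were (8.35% were separated towards higher values). Acly was separated in WAT as well, but the share of all genes separated in both tissues was not counted. Without BAT control 2, whose Acly was highest, the change was -0.35.

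Fasn (15557, 13150 and 8573 CPM in BAT AKO) gave a log2 difference of -0.45 and Acaca (1399, 1210 and 845 CPM) one of -0.40, both with overlapping groups and edgeR adjusted p of 0.462 and 0.453. In both genes BAT control 2 was the highest and BAT AKO 3 the lowest of the 6 libraries. Srebf1 measured 212, 397 and 227 CPM in controls and 409, 333 and 391 CPM in AKO, and was the gene with the largest positive value (0.45, 95% interval -0.07 to 0.98, edgeR adjusted p = 0.416). The tightest gene was Mlxipl, at 505, 507 and 486 CPM in AKO with a coefficient of variation of 2.23%, with a log2 difference of -0.07 (95% interval -0.26 to 0.12). The log2 difference was 0.17 for Scd1 (48162, 39846 and 37124 CPM), 0.02 for Elovl6 (345, 279 and 241 CPM), -0.08 for Thrsp (1390, 1139 and 1080 CPM), -0.08 for Acss2 (284, 210 and 194 CPM) and -0.18 for Scd2 (149, 87 and 117 CPM). The sign of Elovl6 in BAT turned in 8 of 18 alternatives, so it has no direction.

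The difference of the AKO effects, BAT minus WAT, was then tested for each gene. The test called 0 of the 10 in edgeR, beside 0.275% of all genes (0.153% higher), and 0 in DESeq2 and in limma voom. None of the 10 had an unadjusted p under 0.05 in edgeR, beside 3022 of all 16391 genes tested. The smallest p was that of Scd2, whose effects differed by 0.63 (edgeR adjusted p = 0.312). For Acly, with negative values in both tissues, the difference was -0.25 (95% interval -1.08 to 0.58).

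The genes that supply the pathway did not pass the test in AKO either. Of 8 genes of citrate export and NADPH supply, 7 had negative log2 changes in WAT and 6 were separated below the controls, where 15.6% of all genes were, with a median of -0.50 against 0.00 over all genes. Slc25a1, the mitochondrial citrate carrier, stood at a mean of 648 CPM in controls and 302 CPM in AKO (-1.10 ± 0.176, edgeR adjusted p = 0.0749), and malic enzyme Me1 at 679 and 292 CPM (-1.22 ± 0.253, edgeR adjusted p = 0.0945). Pgd (-0.66) and Idh1 (-0.53) followed. On the 6 WAT libraries edgeR called none of the 8, whereas DESeq2, which called 1679 of 15915 genes, and edgeR on all 12 libraries, which called 1030 of 16391, called these 4. EdgeR also called Slc25a1 and Me1 without the low-count filter, and Slc25a1, Me1 and Pgd without WAT control 2. In BAT 6 of the 8 were negative and 3 separated below the controls, where 10.3% of all genes were, with a median of -0.34 against 0.01 over all genes. There edgeR called none, and DESeq2, which called 280 of 14265 genes, called Me1 (-0.49) and Pgd (-0.43).

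Of 15 tested relatives and downstream enzymes in WAT, 4 were separated above the controls and 1 below, where 14.9% and 15.6% of all genes were, and edgeR on the 6 libraries called none. DESeq2 and edgeR on all 12 libraries called Acss1, Fads1 and Hsd17b12, a step of fatty acid elongation named after its values were seen, and edgeR without WAT control 2 called Fads1 and Hsd17b12. The separated genes include Fads1, a desaturase of polyunsaturated fatty acids (0.85, edgeR adjusted p = 0.0997), Acss1 (0.61) and the near-silent Scd3 (1.12 against 2.64 CPM). Of 7 tested ChREBP partners, modifiers and other targets, Pnpla3, a lipid droplet protein induced with lipogenesis, had the smallest p in WAT (-0.65, edgeR adjusted p = 0.163), and DESeq2 called it lower. In BAT the smallest p among the relatives was that of Aacs, which makes acetoacetyl-CoA in the cytosol (-0.59, edgeR adjusted p = 0.243).

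Among the 10 genes of SREBP control, Insig1, which holds SREBP in the endoplasmic reticulum and is itself an SREBP target, was the single gene for which edgeR called a difference between the AKO effects of the tissues. In WAT it measured 264, 422 and 291 CPM in controls and 85.5, 120 and 86 CPM in AKO. In BAT it measured 143, 252 and 100 CPM in controls and 380, 324 and 368 CPM in AKO, so the AKO libraries lay below the controls in WAT and above them in BAT. On the 6 libraries of each tissue neither change passed edgeR (-1.75, edgeR adjusted p = 0.0705, and 1.13, edgeR adjusted p = 0.263), but their difference did (2.84 ± 0.419, edgeR adjusted p = 0.0275). DESeq2 called both single changes (adjusted p = 9.16e-11 in WAT and 0.00161 in BAT). EdgeR called the WAT change without the low-count filter (adjusted p = 0.0147), with all 12 libraries in 1 fit (0.0143) and without WAT control 2 (0.012), and the BAT change without BAT control 2 (0.03). The difference between the tissues was no longer called when any of 8 of the 12 libraries was left out in turn (edgeR adjusted p of 0.0543 to 0.0957). These were WAT control 3, WAT AKO 1 or 3, BAT control 1 or 3, and any BAT AKO library. Nor was the difference called without the muscle-rich libraries (edgeR adjusted p = 0.19), at a log2 value of 3.16. EdgeR then called 0 of all 16588 genes tested, so this check says little about Insig1.

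The 10 genes were related to each other to different degrees across libraries. Over the 12 libraries, with each value taken relative to its own tissue's mean, the 45 gene pairs had a median Pearson r of 0.41, 40 were positive, and the range was -0.36 to 0.90. These are descriptions over libraries that share depth and normalisation. Fasn tracked Acly (0.90), Acss2 (0.88), Mlxipl (0.86) and Acaca (0.82), and the r of Fasn with Acaca was 1.00 in BAT and 0.56 in WAT. Scd1 (0.35) and Srebf1 (0.41) were only loosely related to the mean of the 10. For each library the 10 genes were averaged as z-scores, each gene centred on its tissue's mean and divided by its SD over the 12 libraries. The centring puts libraries on both sides of 0 in each tissue. This mean was highest in WAT control 1 (1.13) and BAT control 2 (1.10) and lowest in WAT AKO 1 (-0.81) and BAT AKO 3 (-0.76). By a fixed rule (largest r with that mean among 11826 genes), the genes most like it were Pdhb, a subunit of pyruvate dehydrogenase (0.96), and the respiratory chain genes Uqcr10 (0.94) and Uqcrq (0.94).

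**Figure D4:**
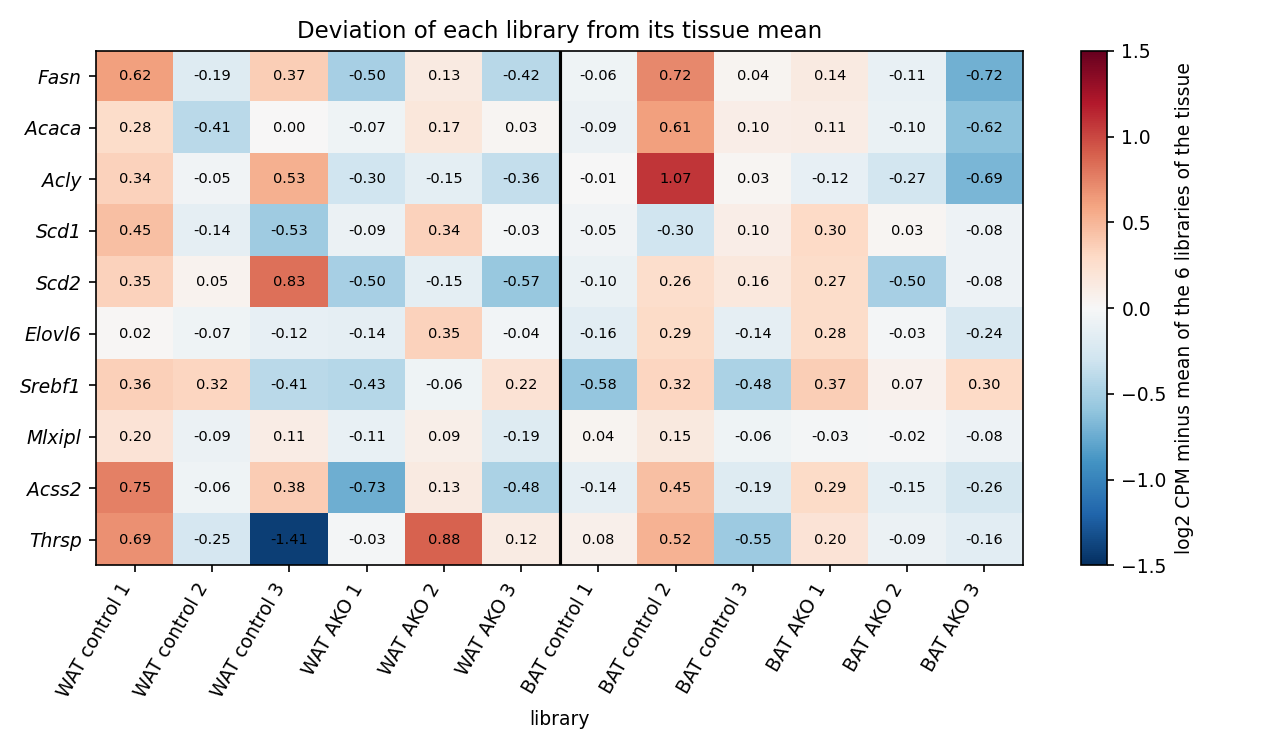
Deviation of each gene from its tissue's mean in each library, on the log2 scale. BAT control 2 is high and BAT AKO 3 low for Fasn, Acaca and Acly, and Thrsp in WAT control 3 lies furthest below the mean of its tissue (-1.41).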

How the data were processed

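Polyadenylated RNA of 12 libraries was counted per gene. Per the labels' protocols, RNA came from TRIzol extraction and the libraries from the VAHTS Universal V6 kit. The deposited counts are whole reads per Ensembl gene as the authors made them, with no normalisation. The authors' deposited FPKM values are the same counts scaled by gene length and library total. They served to compare levels between genes, to form ratios of genes, and in the limma alternatives on log2 FPKM. The submitters' processing notes name HISAT2 2.1.0, Bowtie2 2.2.3 and HTSeq 0.6.0, and the build mm10. The sources used here do not give the role of each, the annotation or whether strand was used, so reads of genes that overlap on opposite strands, such as Acss2 and Gss, cannot be told apart.

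Genes passing filterByExpr (minimum count 10, minimum total 15) were tested in R 4.3.3 with edgeR 4.0.16 (quasi-likelihood F-test, TMM, Benjamini-Hochberg over all genes, threshold 0.05), AKO against control and BAT against WAT on 6 libraries each, and the difference of AKO effects on 12. CPM use TMM factors over all 12 libraries. Intervals are at 95%. The alternatives were DESeq2 1.42.0, limma 3.58.1 (voom, and log2 FPKM with a pseudocount of 1 or 0.1), RLE scaling and TMM without the 10 genes. Further alternatives were other filters, 1 fit of all libraries, a replicate block, and leaving out each library in turn. Another left out the library with the most muscle markers in each group (control 1 and AKO 2 of both depots), called muscle-rich here. WAT control 2 (0.357% muscle markers) was kept, although its share was above that of BAT control 1 (0.199%). Scripts were tested on simulated data. Libraries of 1 group differed beyond counting noise (chi-square per degree of freedom 16.5 to 83.4). The labels do not tie each library to its own animal, so the p-values speak only of the spread between libraries, which may be technical.

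Same-numbered libraries deviated together between the depots (correlations 0.62, 0.24 and 0.52 in controls, 0.69, 0.75 and 0.21 in AKO), so the numbers were taken to pair the depots. WAT AKO 3, however, correlated more with another BAT AKO library than with BAT AKO 3. This pairing comes from the data, since the labels give only the number. Between AKO and control, same-numbered libraries did not deviate together (-0.75 to 0.25). The main tests used no block, so libraries of equal number were treated as independent. In the tests of AKO effects and of their difference, the replicate block also tied control and AKO libraries of equal number. The 10 genes, the lists and the tests were chosen with earlier results of these data known. Named genes outside the 10 are Mcu, up to 4 per list and comparison with the smallest p, and the genes most correlated with the 10. Insig1 was followed through the alternatives after its value was seen.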

Additional observations from a re-analysis of the deposited data

Results flagged for a closer look

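Insig1, which retains SREBP in the endoplasmic reticulum, stood out because its AKO effect differed between the tissues by 2.84 on the log2 scale (edgeR adjusted p = 0.0275). That call held in only 4 of the 12 fits that each left out 1 library, and not without the muscle-rich libraries (edgeR adjusted p = 0.19). The log2 value of Insig1 stayed at 2.59 to 3.26 over all alternatives. Without the muscle-rich libraries edgeR called 0 of all 16588 genes tested, so the lost call there says little about Insig1. In the same values, all 3 AKO libraries lay below all 3 controls in WAT (85.5 to 120 against 264 to 422 CPM). In BAT they lay above all 3 (324 to 380 against 100 to 252 CPM). The share of all genes separated in this way was not counted.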

How the results depend on the processing

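The 7 genes called between the depots in controls kept their direction and their call under each of the 18 alternatives run. In WAT, the count of the 10 genes called was 0 with edgeR and 2 with DESeq2, and 0 to 2 when each library was left out. Over all genes the WAT count rose from 3 to 1679 with DESeq2 and to 1649 without WAT control 2, and the BAT count from 11 to 280 with DESeq2. Values that changed sign were all of genes not called, apart from Scd1 between the AKO depots, which was -0.07 with limma on log2 FPKM at each pseudocount and filter. The replicate block ended only the call of Scd1 between the AKO depots (adjusted p = 0.135), and it turned its difference of AKO effects to -0.02.

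Without the muscle-rich libraries the log2 value was -0.01 for Elovl6 in WAT, -0.06 for Elovl6 in BAT, 0.27 for Srebf1 between the control depots, and -0.07 for Fasn and -0.06 for Scd1 in the difference of AKO effects. On log2 FPKM it was -0.03 for Elovl6 in BAT and, in the difference of AKO effects, -0.10 for Fasn, -0.15 for Scd1 and -0.11 for Mlxipl. Limma voom gave -0.01 for Scd1 in that difference, and the fit of all libraries gave 0.00 for Elovl6 in BAT.

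Leaving out each library in turn gave, for AKO in WAT, -0.13 to 0.22 for Acaca, -0.10 to 0.40 for Scd1 and -0.05 to 0.21 for Elovl6. For AKO in BAT it gave -0.11 to 0.16 for Elovl6, -0.24 to 0.13 for Acss2 and -0.31 to 0.18 for Thrsp, and between the control depots -0.36 to 0.12 for Srebf1. In the difference of AKO effects the ranges were -0.12 to 0.32 for Fasn, -0.42 to 0.17 for Acly, -0.24 to 0.24 for Scd1, -0.27 to 0.01 for Elovl6 and -0.03 to 0.12 for Mlxipl. The cause of these changes was not tested. Where a group was left with a pair of libraries, the spread came from the fit over all libraries used.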

Other observations

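Ratios between genes of the pathway, chosen after their values were seen, were separated between the genotypes in WAT. The Fasn to Acaca ratio of FPKM was 23.3 to 25.9 in WAT controls and 14.6 to 19.5 in WAT AKO (exact two-sided permutation test p = 0.1, the smallest that 3 libraries against 3 allow), and 16.3 to 18.3 against 15.8 to 17.3 in BAT (exact p = 0.4). The Scd1 to Scd2 ratio was 21.8 to 60.5 in WAT controls and 75.1 to 81.9 in WAT AKO (exact p = 0.1), and 243 to 370 against 358 to 516 in BAT (exact p = 0.3). Adjusted over these 4 comparisons by Benjamini-Hochberg, the exact p-values were 0.2 for both ratios in WAT and 0.4 for both in BAT.

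Gm5182, the processed pseudogene that shares sequence with Acaca, held 421, 295 and 376 counts in WAT controls and 1340, 2347 and 1352 counts in BAT controls. Within each control group it ranked the libraries in the same order as Acaca. The order was also the same in BAT AKO (1584, 1194 and 1182 counts). In WAT AKO (465, 413 and 430 counts) it was the reverse of that of Acaca (4739, 4810 and 4790 counts). These orders are of counts not scaled to library size, and the WAT AKO counts of Acaca lie close together. The order of Gm5182 after scaling was not computed.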
